A study of Homo sapiens with 12 samples.

Results

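The response to interferon gamma (IFNγ) of melanoma cells that were also exposed to SB-3CT was read from 6 RNA sequencing samples, 3 treated with SB-3CT alone and 3 treated with SB-3CT together with IFNγ, out of 12 in the series. Every sample came from A375 cells, a long-established line of human melanoma. SB-3CT, an inhibitor of the gelatinases MMP2 and MMP9, was present in all 6 samples, so by their labels the groups differ only in the cytokine. The other 6 samples, 3 labelled as untreated (Control) and 3 given IFNγ alone, were used only to ask whether the IFNγ change was different without SB-3CT. Treatment lasted 24 h in the labels, which give no dose of either agent, and the protocol also mentions a vehicle. No label says that the 3 samples of a group came from separate cultures, so p-values measure the spread between these samples, which may be technical, and the results hold for 1 cell line. The deposited values, log2(FPKM + 1), cover 4918 genes whose symbols run from A1BG to FAM46B, and genes later in the alphabet, among them MMP2, MMP9, IRF1 and the STAT and HLA genes, were not analysed here.

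IFNγ is a cytokine released mainly by T cells and natural killer cells. It binds a receptor on nearly all nucleated cells, where JAK kinases pass the signal to transcription factors that bind the gamma-activated sequence (GAS) in target promoters. A second wave of factors, with IRF1 at its head, binds the related interferon-stimulated response element (ISRE). In melanoma cells this pathway is known for raising antigen presentation, T cell attracting chemokines and the checkpoint ligand PD-L1, encoded by CD274.

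Promoter letters are shown for 4 of the genes that rose, CXCL10, CD274, BST2 and BCL2A1, to set their response beside the letters that the pathway's factors are known to bind. The GAS was searched as TTCNNNGAA, which reads alike on both strands, and the ISRE as GAAA, any 2 bases and GAAA on either strand, and matches may overlap. They were searched in the RefSeq promoter windows of GRCh38.p14, which run from 250 bases before to 50 bases after a gene's start, and the printed letters are on the gene's own strand with the matches in capitals. The whole window of each stretch, searched in 1 orientation, had 1 exact match on its chromosome in GRCh37 (hg19), the build of the files. The printed stretches were not searched by themselves, and each lay outside the gene as GENCODE annotates it. Over all 27305 promoters of the table, 7.88% held the GAS letters, 3.65% the ISRE letters and 11.1% at least 1 of them.
CXCL10, 1 ISRE, chr4:76944842-76944891, minus strand: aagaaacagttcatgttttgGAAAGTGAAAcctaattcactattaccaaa
CD274, 2 overlapping ISREs, chr9:5450314-5450369, plus strand: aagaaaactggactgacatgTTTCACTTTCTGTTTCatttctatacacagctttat
CD274, 1 GAS, chr9:5450397-5450445, plus strand: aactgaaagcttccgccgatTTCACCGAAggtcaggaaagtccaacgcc
BST2, 1 GAS overlapping the first of 2 overlapping ISREs, chr19:17516534-17516595, minus strand: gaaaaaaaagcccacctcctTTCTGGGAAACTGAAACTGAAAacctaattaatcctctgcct
BCL2A1, 1 GAS and 1 ISRE, chr15:80263642-80263726, minus strand: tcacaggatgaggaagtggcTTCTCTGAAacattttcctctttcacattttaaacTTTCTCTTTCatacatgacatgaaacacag
BST2 held a further GAS closer to its start. AIM2, B2M, CEACAM1, DTX3L and ERAP1 held the ISRE letters, and EPSTI1 and DDX60 held both motifs, in windows not printed here. ATF3, BATF2, BOLA2, BTN3A2, C1R, CASP4, CD47, CD74, CKS2, CMPK2, COX7B and DDX58 had a window with neither motif. Windows were found for 69 of the 109 genes that rose by more than 1.5-fold, fewer than the 80% needed, so a share over those genes is void and is not given. A match is only a string of letters, and its absence says only that these letters were not in this window.

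The depth of the samples is known only in relative terms. Whole reads leave steps in the lowest values, and by these steps relative to the mean of the SB-3CT samples, the SB-3CT samples had between 81.8% and 115% of that depth and the SB-3CT+IFNγ samples between 80.9% and 124%. The summed FPKM lay between 121928 and 129692 in the 12 samples, and the median gene of a sample lay between 2.05 and 2.17 log2(FPKM + 1) with SB-3CT and between 1.89 and 1.94 with SB-3CT+IFNγ. It lay between 2.13 and 2.26 in the Control and IFNγ samples, so the SB-3CT+IFNγ samples stood below every other group. Whether this shift came from the treatment or from the libraries was not tested. The 8 melanocyte markers summed to between 52.6 and 58.6 FPKM with SB-3CT and between 37.8 and 40.7 with IFNγ added. CSPG4, a melanoma surface proteoglycan, made most of that sum, with means of 41.9 and 27.7 FPKM in the SB-3CT and the SB-3CT+IFNγ samples. ABCB5 and DCT, the latter an enzyme of pigment synthesis, were at or near 0. Markers of T and B cells summed to between 0.303 and 0.716 FPKM with SB-3CT and between 0.175 and 0.394 with IFNγ added, and those of myeloid cells to at most 0.177 and 0.408 FPKM. The 6 fibroblast markers summed to between 7.16 and 8.28 and between 5.91 and 7.05 FPKM, most of it ACTA2, and the epithelial markers to between 9.24 and 11.8 and between 8.12 and 8.9 FPKM, most of it CLDN4. The 3 endothelial markers measured summed to at most 0.462 and 0.48 FPKM. The part of other cells in the results was not tested.

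Adding IFNγ to SB-3CT changed 1994 of the 4918 genes at an adjusted p-value under 0.05 (limma with Benjamini-Hochberg adjustment, 3 samples against 3). Of those 1994 genes, 386 were higher (7.85% of the genes tested) and 1608 were lower (32.7%). The rises were larger: 109 genes rose by more than 1.5-fold (2.22%) and 69 of them by more than 2-fold, against 164 falls of more than 1.5-fold (3.33%) and 12 of more than 2-fold. Fold changes are differences of mean log2(FPKM + 1), a scale on which changes at low FPKM come out too small. The groups did not overlap in 484 genes that were higher (9.84%) and in 2061 that were lower (41.9%). When only the 3138 genes averaging 1 FPKM or more were tested, 355 were higher and 1590 lower. The lower share was thus larger among expressed genes than over all genes tested.

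The number of lower genes depended on how the samples were scaled. Among the 3138 genes whose FPKM averaged 1 or more, the median log2 change was -0.21 as deposited and -0.01 after median ratio scaling, and the calls then became 650 higher (13.2%) and 554 lower (11.3%). After quantile normalization 523 genes were higher (10.6%) and 834 lower (17%). Removing the dependence on transcript length within each sample left 438 higher (8.91%) and 852 lower (17.3%). With the genes split into 4 sets by transcript length, the median change went from -0.05 in the set with the shortest transcripts to -0.30 in the set with the longest, whereas without SB-3CT it went from -0.09 to 0.01. Under all 4 scalings compared (deposited, median ratio, quantile and length trend removed), 315 genes were higher (6.41%) and 519 lower (10.6%). All 109 rises of more than 1.5-fold and 158 of the 164 such falls were among them, and the other 6 falls were AHNAK, AP1M2, CMIP, CTNNAL1, DDX3X and DNM3. Between 3 samples and 3, an exact permutation test of a single gene cannot give a p-value under 0.1. In bulk RNA, fewer cells making a transcript and less transcript per cell cannot be told apart.

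The largest rise was that of CXCL10. It encodes a chemokine that draws CXCR3-bearing T cells and lies on chromosome 4 (hg19, 76942271 to 76944650). Its listed value was 0 in each SB-3CT sample, and it stood at 6.61, 6.89 and 6.95 log2(FPKM + 1) in the 3 SB-3CT+IFNγ samples, a mean of 112 FPKM (adjusted p = 5.56e-07, limma). EPSTI1, an interferon-induced gene, was the other gene that went from 0 in every SB-3CT sample to at least 1 FPKM in every SB-3CT+IFNγ sample, with 1.58, 1.64 and 1.69 log2(FPKM + 1). No fold is given for either.

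BST2, which encodes tetherin, a membrane protein that holds budding virus particles at the cell surface, lies on chromosome 19 (17513748 to 17516439). It read 1.73, 1.71 and 1.98 log2(FPKM + 1) with SB-3CT and 8.07, 7.98 and 8.06 with SB-3CT+IFNγ. The groups were far apart, with means of 2.51 and 262 FPKM, and the log2 fold change was 6.23 ± 0.08 (SE, n = 3 against 3, adjusted p = 5.09e-07, limma). BANCR, a long noncoding RNA first described in melanoma cells with active BRAF, on chromosome 9 (71911594 to 71926027), read 0.29, 0.00 and 0.43 without the cytokine and 5.34, 5.43 and 5.54 with it. Its log2 fold change was 5.20 ± 0.12 (SE).

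CD274, the gene of PD-L1, on chromosome 9 (5450503 to 5470566), read 0.62, 0.85 and 0.63 log2(FPKM + 1) in the SB-3CT samples and 3.86, 3.95 and 4.11 in the SB-3CT+IFNγ samples. The groups did not overlap, and the mean went from 0.63 to 14.7 FPKM. The log2 fold change was 3.27 ± 0.10 (SE, n = 3 against 3, adjusted p = 1.1e-05, limma), and it was 3.47 after median ratio scaling. CD274 ranked ninth among the rises.

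The other 8 of the 12 largest rises came from several functions. C1S and C1R, the serine proteases of the first complement component, rose by 4.92 and 3.20 on the log2 scale, and A2M, a broad protease inhibitor of plasma, by 3.22. CTSS, a lysosomal protease that trims the invariant chain of MHC class II molecules, rose by 4.78, from a mean of 0.777 to 48 FPKM. BATF2, a transcription factor of the AP-1 family, rose by 3.76. AIM2, a sensor of DNA in the cytosol, rose by 3.39, and CASP1, the inflammasome protease, by 3.03. CD7, a surface protein best known from T cells, rose by 3.58, from 0.17, 0.29 and 0.16 to 3.85, 3.67 and 3.84 log2(FPKM + 1), while CD3D, CD4 and CD8A had means of at most 0.06 log2(FPKM + 1) in the SB-3CT samples and their changes did not pass the test. CASP1 and CARD16 are neighbours with near-identical stretches, so how reads were split between them is uncertain.

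**Figure D1:**
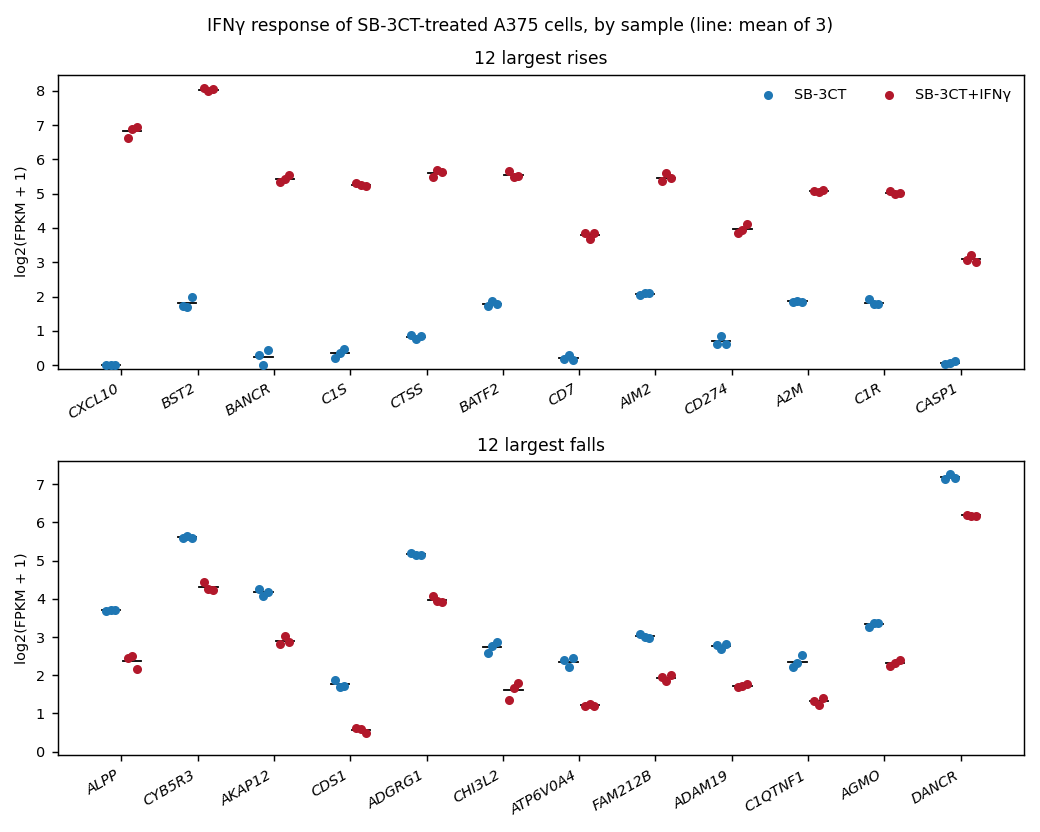
Expression by sample, as log2(FPKM + 1), of the 12 genes with the largest rises (upper panel) and the 12 with the largest falls (lower panel) that passed the test, averaged 1 FPKM or more and had groups that do not overlap. Blue points are the 3 SB-3CT samples, red points the 3 SB-3CT+IFNγ samples and black lines their means. CXCL10 goes from 0 in all 3 SB-3CT samples to between 6.61 and 6.95, and the largest fall, ALPP, goes from about 3.70 to a lowest sample of 2.16.

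The falls were smaller. ALPP, placental alkaline phosphatase, read 3.69, 3.70 and 3.71 log2(FPKM + 1) with SB-3CT and 2.46, 2.50 and 2.16 with SB-3CT+IFNγ, a log2 fold change of -1.33 ± 0.10 (SE, adjusted p = 0.000402, limma). It shares near-identical sequence with ALPPL2, so its reads are uncertain. CYB5R3, an NADH-cytochrome b5 reductase that serves fatty acid desaturation and cholesterol synthesis, on chromosome 22 (43011736 to 43116876), read 5.59, 5.64 and 5.60 and then 4.44, 4.25 and 4.23, a change of -1.30 ± 0.06 (SE). AKAP12, a scaffold that anchors protein kinase A, changed by -1.26 and ADGRG1, an adhesion G protein-coupled receptor, by -1.19.

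The remaining falls of more than 2-fold were in CDS1, which makes CDP-diacylglycerol for phospholipid synthesis (-1.19), CHI3L2, a chitinase-like protein (-1.14), ATP6V0A4, a proton pump subunit (-1.14), FAM212B (-1.08), ADAM19, a membrane metalloprotease (-1.04), C1QTNF1, a secreted C1q-like protein (-1.03), AGMO, which cleaves ether lipids (-1.02), and DANCR, a long noncoding RNA (-1.01). These 12 genes were chosen among those whose groups did not overlap, and each fall passed the test under all 4 scalings. Relative to the median gene they were less deep: after median ratio scaling ALPP was at -1.12, CYB5R3 at -1.06 and DANCR at -0.76.

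A few falls of more than 1.5-fold rested on the choice of samples. CMIP (-0.59), DDX3X (-0.62) and DNM3 (-0.77) passed the test over all 6 samples, and each lost its call in at least 1 of the 6 fits that left a sample out, CMIP without SB-3CT+IFNγ replicate 1 or 2 and the other 2 genes without every sample but SB-3CT replicate 3. Their highest adjusted p-values in those fits (limma) were 0.0735, 0.0886 and 0.0928. None of the 109 rises of more than 1.5-fold lost its call in these fits.

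Antigen presentation rose at several steps of the pathway. Of 11 genes measured, 7 were higher and 4 lower, against 7.85% and 32.7% of all genes tested. The lower count was near that background. The median log2 change was 0.87 beside -0.11 over all genes tested, and the 7 rises held under all 4 scalings while the 4 falls did not. B2M, the light chain of MHC class I, on chromosome 15 (45003556 to 45011049), read 9.93, 10.02 and 10.06 log2(FPKM + 1) with SB-3CT and 12.12, 12.16 and 12.16 with SB-3CT+IFNγ. It rose by 2.15 ± 0.06 (SE, adjusted p = 6.26e-06, limma), and 12.16 was the highest value among all genes and samples. CIITA, the master regulator of MHC class II genes, rose by 2.03, from a mean of 14.4 to 61.6 FPKM, and CD74, the invariant chain, by 1.06.

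The aminopeptidases that trim peptides in the endoplasmic reticulum rose too, ERAP1 by 0.96 and ERAP2 by 0.87. CTSL, a lysosomal protease, rose by 0.28. The 4 lower genes were the chaperones CALR (-0.40) and CANX (-0.37), the lipid-presenting molecule CD1D (-0.26) and CTSB (-0.16), and none of these 4 passed the test after median ratio scaling. The call of CTSB was lost without any sample other than SB-3CT+IFNγ replicate 1, and that of CD1D without SB-3CT+IFNγ replicate 1 or 3.

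Among checkpoint and butyrophilin genes, 8 of 17 measured were higher and 2 lower, against 7.85% and 32.7% of all genes tested. Their median was 0.19. After CD274 the largest rise was in CEACAM1, an inhibitory adhesion molecule, which went from 1.12, 1.14 and 1.26 to 3.49, 3.49 and 3.37 log2(FPKM + 1), by 2.28. Reads may be shared with other CEACAM genes. CD40, a co-stimulatory receptor, rose by 1.75 and CD47, the signal that restrains phagocytosis, by 1.58. Among the butyrophilins, surface proteins that gamma delta T cells sense, 4 rose, BTN3A3 by 1.44, BTN3A2 by 1.09, BTN3A1 by 1.02 and BTN2A2 by 0.79, the first 3 being close copies of each other. CD276, also called B7-H3, was lower by all 4 scalings (-0.47), and CD83 was lower as deposited (-0.38) and neither after median ratio scaling nor without SB-3CT+IFNγ replicate 2 or 3. CD80 was listed at 0 in all 6 samples.

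Chemokine ligands were divided. Of 15 measured, 6 were higher and 2 lower, against 7.85% and 32.7% of all genes tested, with a median of 0.24. CCL2, which attracts monocytes, on chromosome 17 (32582293 to 32584227), read 2.71, 2.43 and 2.95 log2(FPKM + 1) and then 4.22, 4.56 and 4.46, a rise of 1.71 ± 0.15 (SE). CCL5, which attracts T cells, rose by 1.53 from values of at most 0.37, and CXCL16 and CX3CL1, the ligands that are made as membrane proteins, by 0.99 and 0.85. CCL3 rose by 0.33 as deposited, and its call was lost with the length trend removed and without any sample other than SB-3CT replicate 1. The neutrophil attractants went the other way or did not pass: CXCL3 was lower (-0.56), CXCL1 was lower as deposited (-0.40) and not after median ratio scaling, and CXCL2 was at 0.32 with groups that overlapped (adjusted p = 0.291, limma).

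Antiviral effectors and sensors were higher in most cases and lower in none. Of 19 measured, 15 were higher and 0 lower, against 7.85% and 32.7% of all genes tested. The median was 0.85, and all 15 held under all 4 scalings. The 4 that did not pass as deposited were APOBEC3A, APOBEC3B, APOBEC3C and APOBEC3H. DDX58, which encodes the RNA sensor RIG-I, on chromosome 9 (32455300 to 32526206), went from 0.86, 0.60 and 0.59 to 2.75, 2.70 and 2.96 log2(FPKM + 1), by 2.12 ± 0.11 (SE). CMPK2, a mitochondrial nucleotide kinase, rose by 2.09, DTX3L, a ubiquitin ligase, by 1.86, and APOBEC3G, a cytidine deaminase that restricts retroviruses, by 1.75. DHX58, a relative of RIG-I, rose by 1.67 and DDX60 by 1.27.

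The RNA editing enzyme ADAR rose by 0.58. EIF2AK2, the kinase PKR that halts translation on sensing double-stranded RNA, rose by 0.47 ± 0.13 (SE, adjusted p = 0.0346, limma), and this call was lost in 5 of the 6 fits that left a sample out, that is without any sample other than SB-3CT replicate 1, with values between 0.37 and 0.53. APOBEC3B and APOBEC3C were at 0.03 and -0.05 as deposited, and both were higher after median ratio scaling (0.26 and 0.19). APOBEC3A (0.18) and APOBEC3H (0.54) did not pass. The APOBEC3 genes are similar in sequence, so reads may be split between them.

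The 4 apolipoprotein L genes measured all rose, against 7.85% of all genes tested. APOL1, an intracellular and secreted protein known for killing trypanosomes, went from 1.52, 1.31 and 1.18 to 4.09, 4.11 and 4.04 log2(FPKM + 1), by 2.75. APOL6 rose by 2.71 and APOL3 by 2.63. APOL2 rose by 2.16 ± 0.37 (SE), and its SB-3CT replicate 2 stood apart at 1.84 against 3.25 and 3.15 in the other replicates. The genes form a cluster of related copies.

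Of the 15 complement genes measured, 6 rose and 1 fell under each of the 4 scalings, with a median of 0.12. Of all genes tested, 6.41% were higher and 10.6% lower under all 4 scalings. Beside C1S and C1R, C3, the central component, went from 2.02, 1.94 and 1.92 to 4.49, 4.43 and 4.50 log2(FPKM + 1), a rise of 2.51 from a mean of 2.89 to 21.2 FPKM. CFI, the protease that cleaves active C3, rose by 0.50 and C1RL by 0.30, and these calls were lost without SB-3CT replicate 3 or SB-3CT+IFNγ replicate 1 or 3 for CFI and without SB-3CT+IFNγ replicate 2 for C1RL. CD55, which protects the cell's own membrane by breaking up C3 convertases, went from 5.34, 5.27 and 5.19 to 4.36, 4.28 and 4.52 log2(FPKM + 1), a change of -0.88, or -0.64 after median ratio scaling. The membrane regulators CD46 (-0.07) and CD59 (0.21) did not pass.

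Transcription factors and signal regulators gave 7 higher and 3 lower of 17, against 7.85% and 32.7% of all genes tested. Their median was 0.13. Beside BATF2 and CIITA, BATF3 rose by 2.52, from 1.78, 1.71 and 1.62 to 4.40, 4.06 and 4.21 log2(FPKM + 1), while BATF, their relative, stayed near 0 (-0.04). CEBPD, an acute phase factor, rose by 1.10 and ATF3, a stress-induced factor, by 0.82. ETV6 rose by 0.43 and BCL3 by 0.24, a call that was lost without any sample other than SB-3CT replicate 1. The coactivators CREBBP (-0.40) and EP300 (-0.38) were lower as deposited and not after median ratio scaling, EP300 also not without SB-3CT+IFNγ replicate 1 or 3, and CBL, a ubiquitin ligase, was lower under all 4 scalings (-0.46). CEBPB could not be placed: its values were 2.56, 5.78 and 5.81 with SB-3CT and 6.44, 2.41 and 2.68 with SB-3CT+IFNγ, so the groups overlapped (adjusted p = 0.659, limma).

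Of 29 caspases and death regulators, 6 were higher and 5 lower as deposited, with a median of 0.04, against 7.85% and 32.7% of all genes tested. After median ratio scaling 11 were higher and 3 lower, and with the length trend removed 10 and 5. Inflammatory caspases were among the largest rises. Beside CASP1, CASP4, which senses lipopolysaccharide in the cytosol, rose by 1.65, and CARD16, a decoy of CASP1, by 2.85. BCL2A1, an inhibitor of mitochondrial death known as a survival gene in melanoma, went from 0.87, 1.01 and 0.63 to 3.11, 3.41 and 3.37 log2(FPKM + 1), by 2.46. BAK1, a pore former, rose by 0.40. CASP2 (-0.43), DAPK1 (-0.40) and BMF (-0.32) were lower under all 4 scalings, and CASP9 (-0.41) and BCL2L1 (-0.18) were lower as deposited and not after median ratio scaling. BCL2L1 kept its call only without SB-3CT replicate 1 or SB-3CT+IFNγ replicate 1. CASP8, the initiator of receptor-driven death, did not pass as deposited (0.04) and was higher after median ratio scaling (0.26).

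Of 55 cell cycle genes measured, 4 were higher and 23 lower, against 7.85% and 32.7% of all genes tested, so the shares lay near the background. The median was -0.22 and became 0.00 after median ratio scaling, and 3 were higher and 4 lower under all 4 scalings. CDKN1A, the p53-induced cyclin kinase inhibitor p21, went from 8.97, 9.01 and 9.06 to 8.48, 8.40 and 8.36 log2(FPKM + 1), by -0.60 ± 0.05 (SE), and CDK2 was at -0.51. CDK6 was at -0.67 (adjusted p = 0.0124, limma), with SB-3CT replicate 1 at 3.60 against 3.15 and 3.14, and did not pass with all 4 groups in 1 fit (adjusted p = 0.161, limma). CKS2 and CKS1B, small subunits of cyclin-dependent kinases, rose by 0.66 and 0.54, and CDKN2A, a tumour suppressor locus, by 0.54.

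DNA repair genes gave 0 higher and 9 lower of 22, with a median of -0.23, and 3 of the 9 held under all 4 scalings. The lower counts were near the background of 32.7% as deposited and 10.6% under all 4 scalings. Those named by size were ERCC5 (-0.73), DDB1 (-0.61), ERCC3 (-0.42) and ERCC2 (-0.41), all members of nucleotide excision repair, and ERCC2 did not pass after median ratio scaling (-0.19). BRCA1, BRCA2, ATM and ATR changed by between -0.19 and 0.05 and did not pass.

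Genes of oxidative phosphorylation were higher, and how many depended on whether the trend with transcript length was removed. Of 27 measured, 17 were higher and 3 lower as deposited, against 7.85% and 32.7% of all genes tested. The median was 0.28 as deposited, 0.53 after median ratio scaling and 0.11 with the length trend removed, when 10 were higher and 4 lower. Under all 4 scalings 9 were higher and 0 lower. COX7B, a subunit of cytochrome c oxidase, read 8.57, 8.72 and 8.62 log2(FPKM + 1) with SB-3CT and 9.12, 9.26 and 9.30 with SB-3CT+IFNγ, a rise of 0.59 ± 0.06 (SE) that was 0.74 without the length trend. ATP5E, a subunit of ATP synthase, rose by 0.57, from means of 1.47e+03 to 2.19e+03 FPKM. COX7A2 rose by 0.53 and did not pass without the length trend (0.17, adjusted p = 0.185, limma). The lengths used, each of 1 annotated transcript, were 2444 bases for COX7B, 3610 for ATP5E and 462 for COX7A2. Values without the length trend rest on these lengths, and whether the cells made those transcripts was not tested. The catalytic ATP synthase subunits ATP5A1 (-0.32) and ATP5B (-0.37) were lower as deposited and not after median ratio scaling.

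Of 17 integrated stress response genes, 5 were higher and 5 lower, with a median of -0.08, against 7.85% and 32.7% of all genes tested, so the lower count was near the background. Beside CEBPD and ATF3, ASNS, asparagine synthetase, rose by 0.51, DDIT3, the factor CHOP, by 0.39 (not passing with the length trend removed) and CHAC1 by 0.35. ALDH18A1, an enzyme of proline synthesis, was lower (-0.50), as were DDIT4 (-0.44) and AARS (-0.42). ATF4, the factor at the head of the response, was at -0.04 and did not pass as deposited.

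Cholesterol synthesis was lower at most of its measured steps. Of 7 genes, CYB5R3 among them, 0 were higher and 6 lower, against 7.85% and 32.7% of all genes tested. All 7 averaged 1 FPKM or more, and 1590 of the 3138 such genes were lower when tested alone. The median of the 7 was -0.61, beside -0.21 over those 3138 genes. After median ratio scaling it was -0.39, beside -0.01. Under all 4 scalings 5 of the 7 were lower, beside 10.6% of all genes tested. DHCR7, an enzyme of the late steps to cholesterol, went from 3.50, 3.47 and 3.44 to 2.97, 2.69 and 2.80 log2(FPKM + 1), a change of -0.65 ± 0.08 (SE, adjusted p = 0.00179, limma). CYP51A1, lanosterol demethylase, was at -0.61 and ACLY, which makes cytosolic acetyl-CoA, at -0.55, and EBP (-0.18) did not pass as deposited.

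Collagens and matrix genes gave 1 higher and 17 lower of 32, against 7.85% and 32.7% of all genes tested. Their median was -0.28 beside -0.11 over all genes tested. Of the 32, 21 averaged 1 FPKM or more. Over the 3138 such genes the median was -0.21, and 1590 were lower when tested alone, so the deposited values lay near that background. Under all 4 scalings 10 of the 17 were lower, beside 10.6% of all genes tested. COL5A2 read 4.65, 4.57 and 4.64 and then 3.83, 3.80 and 3.83 log2(FPKM + 1), a change of -0.80 ± 0.04 (SE). The basement membrane collagens COL4A1 (-0.60) and COL4A2 (-0.54) and the microfibrillar COL6A1 (-0.58) were lower, whereas COL6A2, the partner chain of COL6A1, was the gene that rose (0.41). The sheddases ADAM10 (-0.23) and ADAM17 (-0.19) did not pass. Of the 8 melanocyte markers, 4 were lower as deposited and 3 under all 4 scalings, beside 32.7% and 10.6% of all genes tested. They were CSPG4 (-0.58), CITED1 (-0.57), CDH19 (-0.52) and BCAN (-0.29), BCAN as deposited and not after median ratio scaling (-0.09). EDNRB (0.11), ABCB5 (0.01), CAPN3 (-0.06) and DCT (-0.07) did not pass as deposited, and 1 marker was higher after median ratio scaling. Of the marker genes of other cell types, COL6A3 (-0.20), CSF1R (0.23) and CDH5 (-0.08) passed the test at low levels, the first as deposited and not after median ratio scaling, and CSF1R went from a mean of 0.044 to 0.229 FPKM. The call of CSF1R was lost without SB-3CT replicate 1 or 2 or SB-3CT+IFNγ replicate 2, and that of COL6A3 without SB-3CT replicate 3 or any SB-3CT+IFNγ sample.

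**Figure D2:**
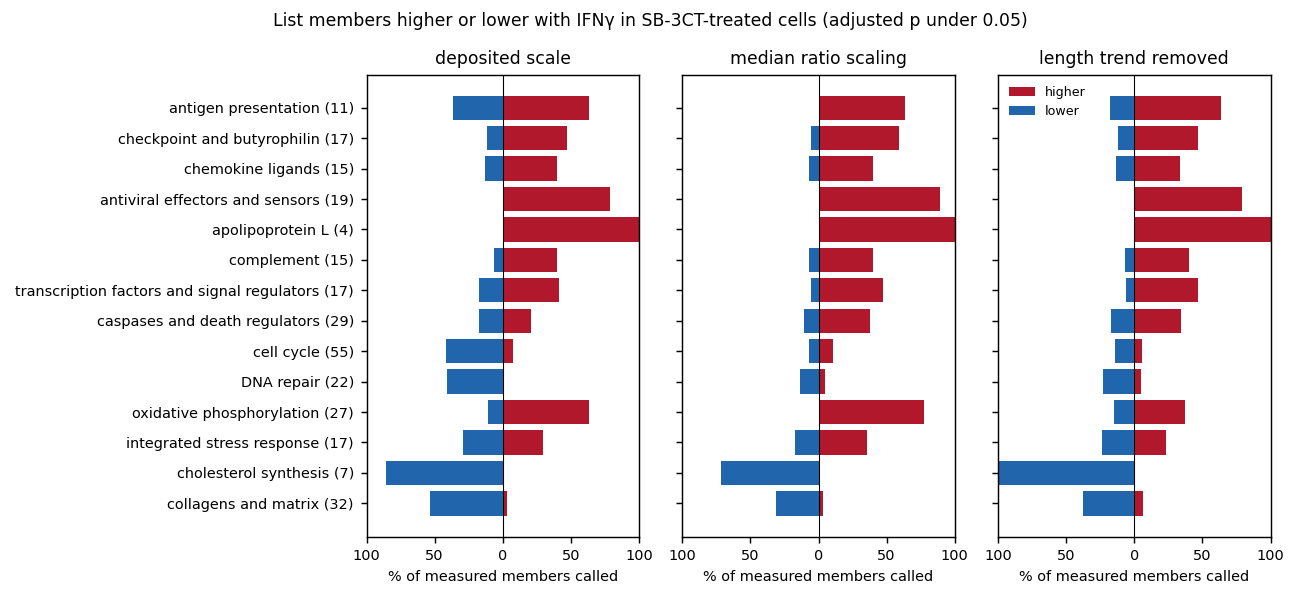
Share of the measured members of each gene list (their number in brackets) that were higher (red, to the right) or lower (blue, to the left) with SB-3CT+IFNγ than with SB-3CT at an adjusted p-value under 0.05, in percent of measured members, on the deposited scale, after median ratio scaling and with the length trend removed. Antiviral genes are higher in 15 of 19 as deposited with 0 lower, while the 23 of 55 cell cycle genes lower as deposited become 4 after median ratio scaling.

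The same cytokine was compared without SB-3CT in the other 6 samples, which share no sample with the comparison above. IFNγ alone against Control gave 416 higher genes (8.46%) and 542 lower (11%). Of the 386 genes higher with SB-3CT, 200 were also higher without it, 51.8% of the first list and 48.1% of the second. Of the 109 rises of more than 1.5-fold with SB-3CT, 94 (86.2%) were also higher without it, with a median log2 change of 1.22 with and 1.46 without SB-3CT for the 109. Among lower genes, 332 were shared, 20.6% of those lower with SB-3CT and 61.3% of those lower without. For the 3177 genes averaging 1 FPKM or more over the 12 samples, the changes correlated with Pearson's r = 0.80 and Spearman's rho = 0.40, a description across genes that come from the same libraries and are not independent.

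**Figure D3:**
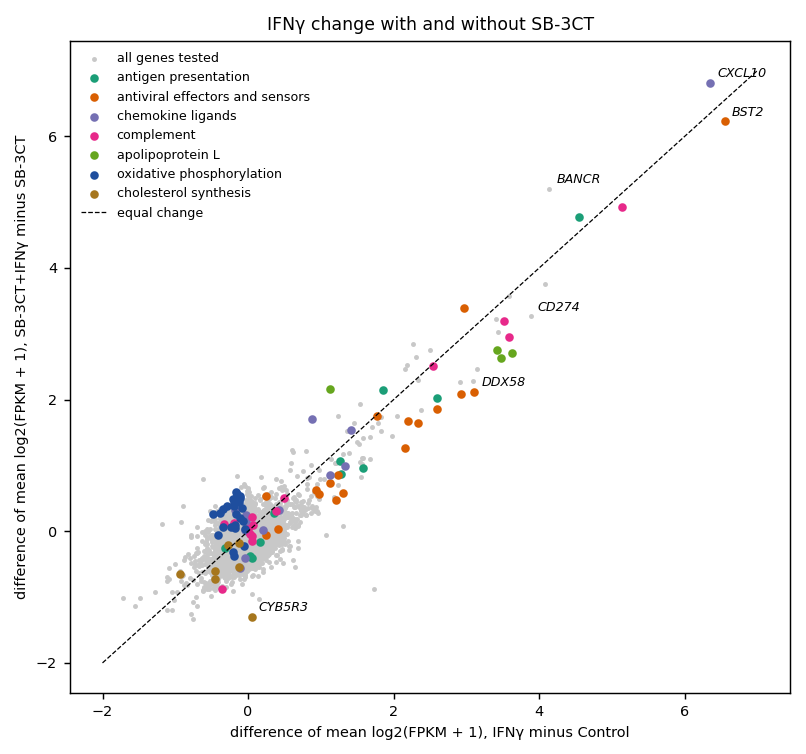
Difference of mean log2(FPKM + 1) between IFNγ and Control (horizontal) and between SB-3CT+IFNγ and SB-3CT (vertical) for the 4918 genes (grey), with 7 gene lists in colour. The dashed line marks equal change. DDX58 lies below the line at 2.12 with and 3.11 without SB-3CT, and BANCR above it at 5.20 and 4.14.

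Whether the IFNγ change differed with SB-3CT was tested directly, as the change with SB-3CT minus the change without it over the 12 samples. The difference passed at an adjusted p-value under 0.05 in 1099 genes, 233 positive (4.74%) and 866 negative (17.6%). The split followed the scaling: it was 378 positive (7.69%) and 283 negative (5.75%) after median ratio scaling, 295 (6%) and 345 (7.02%) after quantile normalization, and 238 (4.84%) and 181 (3.68%) with the length trend removed. Over the genes averaging 1 FPKM or more, the median difference was -0.19 as deposited and -0.02 after median ratio scaling. Under all 4 scalings, 142 genes were positive and 117 negative. Single samples mattered for the negative count, which was 517 without Control replicate 2, 552 without IFNγ replicate 1 and 560 without IFNγ replicate 3. Of the 109 strong rises, 35 had a negative and 20 a positive difference as deposited, and 18 and 25 after median ratio scaling. With the length trend removed there were 13 and 13. These genes were picked by their rise in samples that enter the difference, which favours a positive one, so the counts are a description.

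Among antiviral genes, called differences were negative in all cases but 1. Of the 19, 12 had a negative and 1 a positive difference as deposited, against 17.6% and 4.74% of all genes tested. The median was -0.39 beside -0.09 over all genes tested. There were 8 and 1 after median ratio scaling, 9 and 1 after quantile normalization and 7 and 1 with the length trend removed. The negative shares of all genes tested were then 5.75%, 7.02% and 3.68%. DDX58 read 0.60, 0.76 and 0.69 log2(FPKM + 1) in Control and 3.85, 3.65 and 3.87 with IFNγ alone, above all 3 samples with both agents. Its difference was -0.99 ± 0.15 (SE, adjusted p = 0.00374, limma), and the change with SB-3CT alone was 0.00. DDX60 (-0.88), CMPK2 (-0.84), ADAR (-0.74), DTX3L (-0.73) and EPSTI1 (-0.71, from 0 with SB-3CT) also passed under all 4 scalings. EIF2AK2 (-0.74) did not pass with the length trend removed.

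Of the 4 apolipoprotein L genes, 3 had a negative difference under each scaling, beside 17.6% of all genes tested as deposited. APOL6 read 1.32, 1.38 and 1.49 log2(FPKM + 1) in Control and 5.17, 4.86 and 5.02 with IFNγ alone, a rise of 3.62 against 2.71 with SB-3CT and a difference of -0.91 ± 0.12 (SE). APOL3 was at -0.85 and APOL1 at -0.68. APOL2 had a positive value of 1.05 that did not pass (adjusted p = 0.309, limma), and its IFNγ samples were spread from 3.13 to 5.37. CEACAM1 (-0.81) and ATF3 (-0.73) also passed under all 4 scalings, and ATF3 was raised by SB-3CT alone (0.79). AIM2 went the other way, with a rise of 3.39 with and 2.97 without SB-3CT and a difference of 0.41. SB-3CT alone lowered AIM2 (-0.70).

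For CD274 the sign of the difference was stable and the call was not. CD274 read 0.65, 0.51 and 0.71 log2(FPKM + 1) in Control and 4.64, 4.34 and 4.52 with IFNγ alone, so each of these 3 IFNγ samples lay above each sample with both agents. Its difference was -0.60 ± 0.14 (SE, adjusted p = 0.0154, limma) as deposited. It was -0.40 after median ratio scaling, -0.44 after quantile normalization and -0.31 with the length trend removed, with adjusted p-values of 0.0705, 0.058 and 0.178 (limma). For CXCL10 the difference was positive, 0.47 as deposited and 0.69 after median ratio scaling, and did not pass with the length trend removed (0.35). For BST2 (-0.32) and C1S (-0.22) it did not pass as deposited, and that of BST2 passed after quantile normalization (-0.61) and without Control replicate 3 (-0.47).

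In antigen presentation, the difference was negative for CIITA (-0.58) and ERAP1 (-0.63) and positive for B2M (0.29). CIITA read 3.93, 3.78 and 3.86 in Control and 6.50, 6.34 and 6.54 log2(FPKM + 1) with IFNγ alone. With the length trend removed no difference of the 3 passed, at -0.15 for CIITA, -0.30 for ERAP1 and 0.13 for B2M. The value for CIITA rests on a length of 16061 bases, that of 1 annotated transcript. Whether the cells made that transcript was not tested. The difference of B2M also did not pass after quantile normalization (adjusted p = 0.0717, limma), and it was lost when any 1 of the 12 samples other than Control replicate 3 or IFNγ replicate 2 was left out (adjusted p up to 0.115, limma). BTN3A2 (-0.59) lost its call with the length trend removed.

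**Figure D4:**
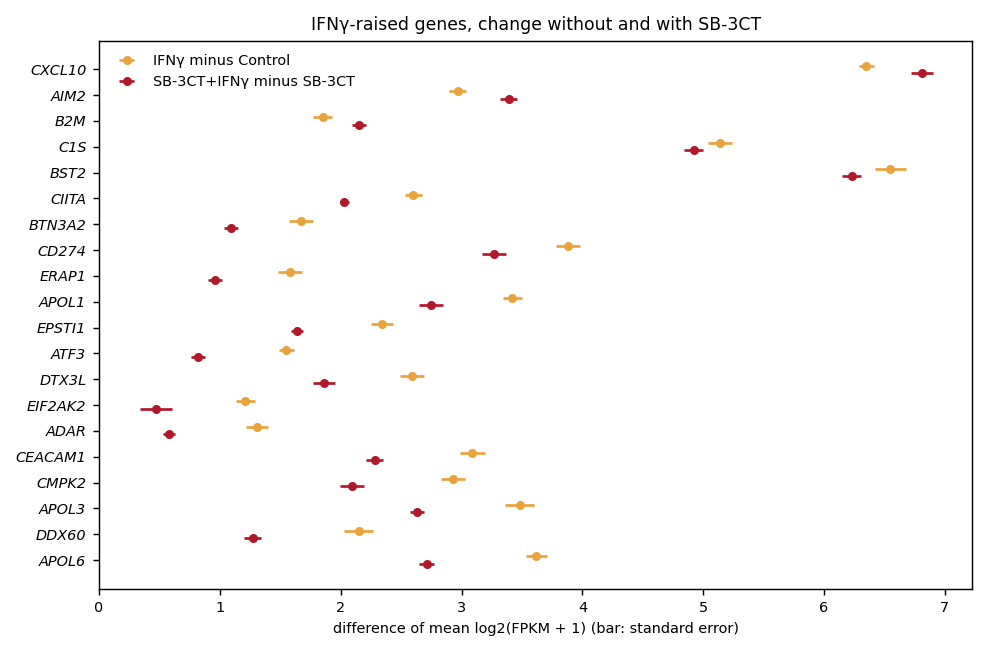
Difference of mean log2(FPKM + 1) between IFNγ and Control (orange) and between SB-3CT+IFNγ and SB-3CT (red) for 20 genes raised by IFNγ, with standard errors as bars, ordered by the difference between the pair. APOL6, at the bottom, is at 3.62 and 2.71, and AIM2, near the top, at 2.97 and 3.39.

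The 6 largest negative differences were those of CYB5R3, ANGPTL4, C1QTNF1, FAM20C, CPA4 and DDX58. CYB5R3 read 4.49, 4.52 and 4.54 log2(FPKM + 1) in Control and 4.61, 4.54 and 4.55 with IFNγ alone. SB-3CT raised it by 1.09, and with both agents it lay below all Control samples, for a difference of -1.35 ± 0.08 (SE, adjusted p = 7.24e-06, limma). C1QTNF1 had a change of 0.70 under SB-3CT alone, 0.15 under IFNγ alone (not passing) and a difference of -1.18. Of the 55 cell cycle genes, 26 had a negative and 3 a positive difference as deposited, and 16 and 5 after median ratio scaling. There were 17 and 2 after quantile normalization and 13 and 1 with the length trend removed. The negative shares of all genes tested were 17.6%, 5.75%, 7.02% and 3.68% in this order. With IFNγ alone, 13 of the 55 were higher and 2 lower.

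ANGPTL4, a secreted inhibitor of lipoprotein lipase on chromosome 19 (8428173 to 8439254), read 1.00, 1.08 and 1.04 in Control, 2.38, 2.28 and 2.39 with IFNγ, 2.75, 2.96 and 2.82 with SB-3CT and 3.01, 2.90 and 2.87 log2(FPKM + 1) with both. Each agent alone raised ANGPTL4, and with IFNγ on top of SB-3CT it was at 0.08 (adjusted p = 0.443, limma), which passed after median ratio scaling (0.30). Its difference was -1.23. FAM20C, a kinase of secreted proteins, rose by 1.07 with IFNγ alone and was at -0.05 with SB-3CT present, which did not pass, a difference of -1.12. CPA4, a secreted carboxypeptidase, rose by 0.62 without SB-3CT and fell by 0.43 with it, a difference of -1.05. CPA4 and ERRFI1, an inhibitor of the EGF receptor, were the genes that were lower under all 4 scalings with SB-3CT and higher as deposited without it. In reverse, 8 genes were higher under all 4 scalings with SB-3CT and lower as deposited without it. They were ADH5, ARL3, ATP5C1, ATP5O, ATP6V1G1, CCDC53, CNIH1 and COA6.

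Among positive differences, FABP7, the brain type of fatty acid binding protein, read 2.96, 3.36 and 3.17 log2(FPKM + 1) in Control and 1.79, 2.26 and 1.90 with IFNγ alone. Its values with SB-3CT (2.12, 2.38 and 2.24) and with both agents (2.19, 2.43 and 2.44) overlapped, and the difference was 1.29 ± 0.20 (SE, adjusted p = 0.00374, limma). BANCR had a difference of 1.06: it read 1.08, 0.96 and 1.23 in Control, was lowered by SB-3CT alone (-0.85), and reached 4.94, 5.56 and 5.20 with IFNγ alone, which overlaps the samples with both agents. AGMO and DANCR were lower with IFNγ in both settings and less so with SB-3CT, with differences of 0.71 and 0.48, and AGMO was also lowered by SB-3CT alone (-1.12).

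CCL2 had a difference of 0.84, with 3.20, 2.91 and 2.83 log2(FPKM + 1) in Control and 3.84, 4.01 and 3.73 with IFNγ alone, and it did not pass with the length trend removed. BOLA2, CT45A7 and C7orf55-LUC7L2 had differences of 0.77, 0.83 and 0.83 that did not pass with the length trend removed either, and each shares sequence with a near-identical copy or a parent gene. That of C7orf55-LUC7L2 was also lost when any 1 of the 12 samples other than replicate 2 of SB-3CT or of SB-3CT+IFNγ was left out (adjusted p up to 0.102, limma). It was lost as well with eBayes without trend (adjusted p = 0.0538, limma). In oxidative phosphorylation, 21 of 27 genes had a positive difference as deposited, 22 after median ratio scaling and 12 with the length trend removed, with 0 negative in each case. After quantile normalization 13 were positive and 1 negative. The positive shares of all genes tested were 4.74% as deposited, 7.69% after median ratio scaling, 4.84% with the length trend removed and 6% after quantile normalization. With IFNγ alone, 0 of the 27 were higher and 7 lower, with a median change of -0.18. COX7B had a difference of 0.76 that passed under all 4 scalings, of which removal of the length trend rests on an annotated length of 2444 bases. Of the 15 strong rises that were not higher without SB-3CT, 11 had a positive difference, and for C4orf3, CMC2, CNIH4, COX7B, DYRK4 and ENY2 it passed under all 4 scalings. These 15 genes were picked by their changes in the same samples. That choice favours a positive difference, so the count is a description and no separate support.

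**Figure D5:**
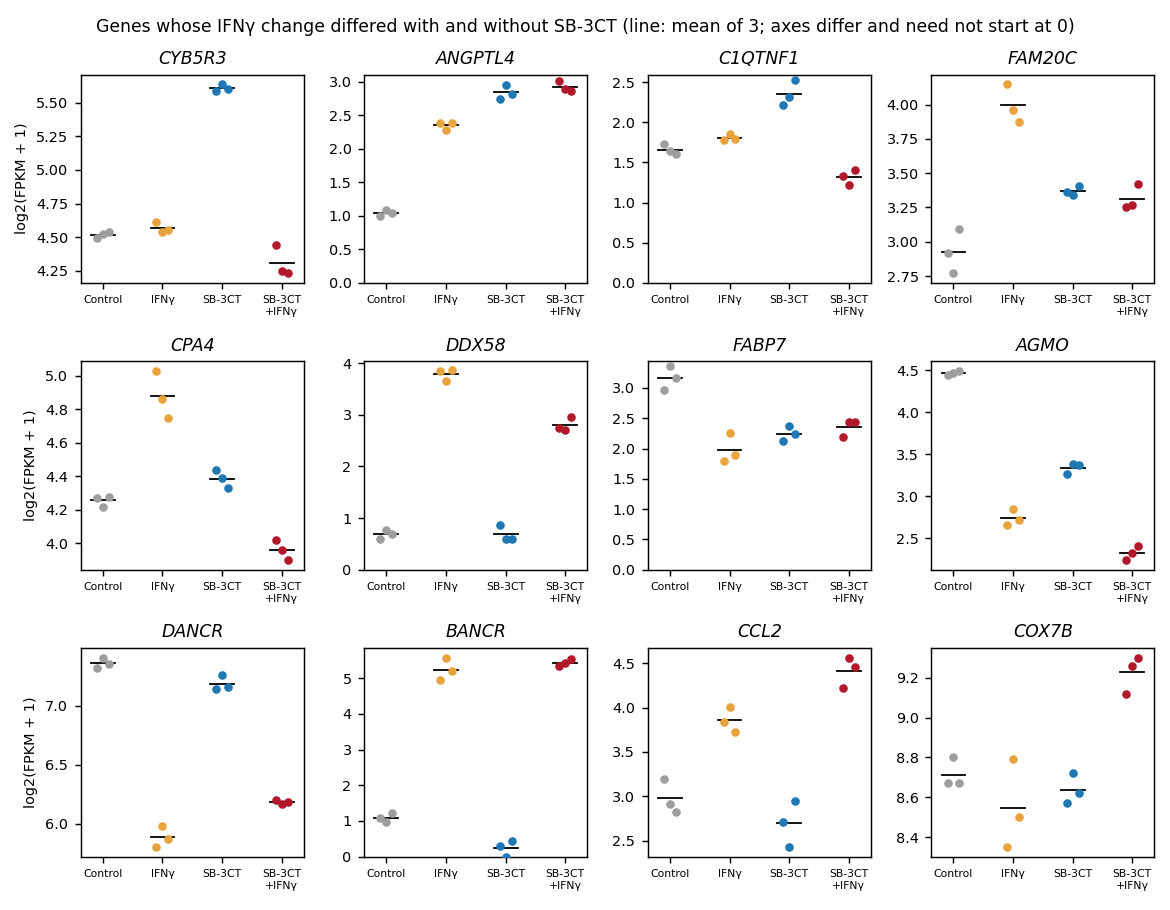
Expression by sample, as log2(FPKM + 1), of 12 genes whose IFNγ change differed with and without SB-3CT, in Control (grey), IFNγ (orange), SB-3CT (blue) and SB-3CT+IFNγ (red), with the mean of 3 samples as a black line. The axes differ between panels. CYB5R3 is highest in the 3 SB-3CT samples, at 5.59 to 5.64, and ANGPTL4 is lowest in Control, at 1.00 to 1.08.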

How the data were processed

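The authors aligned RNA sequencing reads of A375 cells to hg19 with HISAT2 2.0.5 and calculated FPKM with StringTie 1.3.3 (versions from the submitters' processing notes). The values the authors deposited are log2(FPKM + 1), as their range and sums show. The design had assumed plain FPKM, so no further logarithm was taken, and FPKM was recovered from the logs where needed. Whether reads were counted by strand is not given in the sources used here, so genes that overlap on opposite strands cannot be told apart. Absolute depth is not known, so counting error is not given. Columns were matched to samples by name, with columns named NC taken as Control, and 0 columns of values per sample were unused.

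SB-3CT+IFNγ was compared with SB-3CT in R 4.3.3 with limma 3.58.1 (lmFit and eBayes with trend) on the 6 samples, without a block, with Benjamini-Hochberg adjustment over 4918 genes. The difference between the IFNγ changes with and without SB-3CT was fitted over all 12 samples. Functions were tested on simulated data. Alternatives were median ratio scaling, quantile normalization, removal of the dependence on transcript length within each sample (loess, span 0.5), a pseudocount of 0.1, a filter keeping genes that averaged 1 FPKM or more, other variance models, all 4 groups in 1 fit, other thresholds, the replicate number as a block, and leaving out each sample. Same-numbered samples were not paired: their deviations from the group means correlated at -0.39, -0.23 and -0.07.

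Named genes were CD274 and CXCL10, the 12 largest rises and 12 largest falls that passed the test, averaged 1 FPKM or more and had groups that do not overlap, up to 4 of the largest changes in each gene list with any other member by its values, the 6 largest differences of each sign, and 23 further genes whose difference is given, chosen with values known. Members and gene lists were chosen with earlier results of these data known. Gene positions and lengths came from GENCODE release 44 on GRCh37, where 4458 symbols were current and 415 matched by an older name. The length was that of 1 annotated transcript per gene, and whether the cells made that transcript was not tested. Some items are not reported here.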

Additional observations from a re-analysis of the deposited data

Results flagged for a closer look

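The IFNγ change of 33 genes named here differed with and without SB-3CT by the test of the difference itself (limma over the 12 samples, adjusted p-value under 0.05), and 22 of these passed under all 4 scalings. Of the 33, 6 of each sign were picked as the largest differences that passed, and the rest with their values known. Their number is therefore no separate result. Over all 4918 genes tested, 1099 passed as deposited, and 142 positive and 117 negative passed under all 4 scalings. Values are the change with SB-3CT minus the change without it, on the log2(FPKM + 1) scale. The difference was positive for FABP7 (1.29), BANCR (1.06), AGMO (0.71), DANCR (0.48), COX7B (0.76) and AIM2 (0.41) under all 4 scalings. It was negative under all 4 for CYB5R3 (-1.35), ANGPTL4 (-1.23), C1QTNF1 (-1.18), FAM20C (-1.12), CPA4 (-1.05), DDX58 (-0.99), APOL6 (-0.91), DDX60 (-0.88), APOL3 (-0.85), CMPK2 (-0.84), CEACAM1 (-0.81), ADAR (-0.74), DTX3L (-0.73), ATF3 (-0.73), EPSTI1 (-0.71) and APOL1 (-0.68).

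The other 11 passed as deposited and lost the call under at least 1 other scaling. They were CCL2 (0.84), C7orf55-LUC7L2 (0.83), CT45A7 (0.83), BOLA2 (0.77), CXCL10 (0.47), which was at 0 in the SB-3CT samples, B2M (0.29), EIF2AK2 (-0.74), ERAP1 (-0.63), CD274 (-0.60), BTN3A2 (-0.59) and CIITA (-0.58). What lies behind these differences was not tested.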

How the results depend on the processing

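Scaling moved the counts most. Median ratio scaling gave 650 higher and 554 lower genes, and 199 higher and 42 lower by more than 1.5-fold, against 386, 1608, 109 and 164 as deposited. Quantile normalization gave 834 lower genes and 54 lower by more than 1.5-fold, and removal of the length trend 852 and 61. A pseudocount of 0.1 gave 182 higher and 497 lower genes past 1.5-fold, and a log2 threshold of 0.5 with unadjusted p-values 335 lower. For the difference with and without SB-3CT, median ratio scaling gave 378 positive and 283 negative genes, quantile normalization 345 negative and the length trend removed 181 negative, against 233 and 866. The cause was not tested. Leaving out a sample gave 303 to 340 higher and 1204 to 1443 lower genes, 109 to 115 and 139 to 199 past 1.5-fold, and 161 to 272 positive and 517 to 1178 negative differences. With the replicate number as a block, although the numbers do not pair the samples, there were 284 higher and 1077 lower genes (109 and 163 past 1.5-fold) and 234 positive and 848 negative differences. Under these alternatives, no named gene reversed a direction that passed the test in either fit. A change of sign that passed in neither fit was not counted as a reversal. The changes of named genes kept their side of the threshold in 768 comparisons with an alternative other than leaving out a sample, lost it in 19 and gained it in 1 (ANGPTL4), and their differences in 264, 15 and 1 (BST2). With a sample left out, changes kept it in 516 and lost it in 12, and differences kept it in 399, lost it in 20 and gained it in 1. The block ended the calls of BCAN, CDH5, COL6A3, CSF1R and EIF2AK2. Absolute depth is not known, so a gene listed at 0 may be expressed below detection.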
